A study of Homo sapiens with 12 samples.

Results

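The enzymes that break down glucose, store it as glycogen or pass it into the pentose phosphate pathway were followed in the breast cancer line MDA-MB-231, which is triple-negative and of human origin, across oxygen levels and a knockdown of RIPOR3. Members were the rows of the count table with 34 listed gene symbols, out of 24641 symbols in the table. They comprised 20 genes of glucose uptake and glycolysis, 7 of glycogen metabolism and 7 of the pentose phosphate pathway. All 34 were among the 15648 genes with enough counts to be tested, and none was lost to the filter on low counts. The study's stated question was the role of RIPOR3 in tumour growth and metastasis.

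The comparison involved 4 groups of 3 libraries. One line expressed a control hairpin (shControl) and the other a hairpin that targets RIPOR3 (shRIPOR3). A short hairpin RNA is processed into a small RNA that lowers its target mRNA. Each line was kept either in normoxia or for 24 hours in a hypoxic work station with 1% O2 and 5% CO2 at 37 °C. The labels give shControl cells the wild-type genotype and describe the shRIPOR3 cells as a knockdown line. The sequence and number of the hairpins, and whether a line grew from 1 clone, are not stated in these sources. All count columns of shRIPOR3 libraries bear the same tag, sh4, and whether it names a single hairpin is not stated. Effects of the hairpin on targets other than RIPOR3 were not tested. The labels do not say whether the 3 libraries of a group were grown separately. A p-value here therefore reflects the spread among these libraries alone, and that spread may be technical.

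Glycolysis splits glucose into pyruvate through a chain of cytosolic enzymes and yields ATP without oxygen, with lactate dehydrogenase renewing the NAD+ that the chain consumes. Glycogen enzymes divert glucose phosphate into a branched store and release it again, and the pentose phosphate pathway turns it into NADPH and ribose phosphate, with a reversible arm that returns carbon to glycolysis. Hypoxia-inducible factors are known to raise the transcription of many glycolytic genes in cells short of oxygen, and several steps are served by isoenzymes whose genes respond unequally.

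Normoxia libraries held 14750734 to 30032858 counts and hypoxia libraries 31781324 to 52526813. RIPOR3, the targeted gene, held 7, 3 and 7 counts in normoxia shControl against 0, 0 and 1 in normoxia shRIPOR3, and 33, 18 and 30 in hypoxia shControl against 9, 3 and 11 in hypoxia shRIPOR3. HIF1A mRNA fell in hypoxia by 1.47 on the log2 scale in shControl (SE 0.039), and EPAS1, which encodes a second hypoxia-inducible alpha subunit, rose by 1.14 (SE 0.069). HIF1A held 179.8 to 180.3 CPM (counts scaled to a common library size) in normoxia shControl and 100.3 to 107.1 in normoxia shRIPOR3. In hypoxia HIF1A held 63.2 to 67.75 in shControl and 59.8 to 62.8 in shRIPOR3. EPAS1 held 7.72 to 8.14 CPM in normoxia shControl and 5.09 to 5.95 in normoxia shRIPOR3. In hypoxia EPAS1 held 16.7 to 17.8 in shControl and 7.85 to 8.12 in shRIPOR3. Their part in the members' changes was not tested. The 5 mesenchymal markers of the line (VIM, CD44, SPARC, ZEB1, MMP14) were all above 1 CPM. In normoxia they summed to 1540 to 1570 CPM in shControl and 1397 to 1449 in shRIPOR3. In hypoxia the sum was 2069 to 2081 CPM in shControl and 1665 to 1698 in shRIPOR3, so no groups overlapped. Summed luminal markers lay between 1281 and 1615 CPM. Of these 10 markers 4 were under 1 CPM in hypoxia shControl and 3 in each other group. All 4 blood markers in the table stayed under 1 CPM, and 5 of 6 fibroblast markers did. Of 7 muscle or liver forms of the enzymes 3 were in the table, and 2 of these stayed under 1 CPM, PYGM among them. FBP1, the third, was expressed, at 17.4 ± 0.342 CPM in normoxia shControl, 21.1 ± 1.01 in normoxia shRIPOR3, 9.33 ± 0.516 in hypoxia shControl and 12.3 ± 0.275 in hypoxia shRIPOR3. The endothelial markers PECAM1, CDH5 and KDR were detected, with VWF under 1 CPM, and their sum lay at 13.5 to 14.8 CPM in normoxia shControl, 8.46 to 10.4 in normoxia shRIPOR3, 21.7 to 23.3 in hypoxia shControl and 12.8 to 13.6 in hypoxia shRIPOR3. Some members also had their lowest mean level in normoxia shRIPOR3 and their highest in hypoxia shControl, as did the mesenchymal sum. These members were SLC2A1, SLC2A3, PFKL, PFKP, ALDOC, PGK1, PGAM1, ENO1, ENO2, ENO3, LDHA and PGM1. The share of all tested genes with these extremes was not counted. The part of the endothelial or mesenchymal genes in the results of these members was not tested. In bulk samples fewer cells of a type and less RNA per cell cannot be told apart. Levels are CPM scaled by TMM, which matches libraries on the bulk of their genes. With plain library totals in place of TMM, the median change of all genes moved up by 0.11 (log2) for hypoxia in shControl and by 0.12 in shRIPOR3. Of all calls, 61.6% rather than 50.03% were then higher in shControl, and 63.4% rather than 45.3% in shRIPOR3.

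Per length of annotated exon the highest levels were all in the glycolysis branch. In normoxia shControl the highest levels were those of GAPDH at 771.5 ± 19.4 CPM per kb (SD, n = 3), ENO1 at 674 ± 21.5, PKM at 581 ± 13.2, TPI1 at 367 ± 21.3 and LDHA at 326 ± 14.4. GAPDH oxidises glyceraldehyde phosphate, ENO1 is the main enolase, PKM the pyruvate kinase, TPI1 the triose phosphate isomerase and LDHA the lactate dehydrogenase subunit of muscle type. PGAM1, the phosphoglycerate mutase, followed at 149 ± 3.29 CPM per kb. The order depends on the length used. Per kb of the longest coding transcript PKM came first (1832 CPM per kb), then ENO1 (1516), GAPDH (1227), LDHA (837) and TPI1 (562), with PGAM1 again the sixth (209). A group of 4 genes then lay close together, PGD at 73.9 ± 4.07, PGK1 at 72.9 ± 1.19, PFKP at 71.8 ± 1.24 and HK1 at 64.9 ± 1.02, and the first 3 of these differed by less than the spread between libraries of PGD. Per kb of the longest coding transcript these 4 ran from 82.3 for PGK1 to 125 for PFKP. In the glycogen branch PGM1 (32.0 ± 0.876) and PYGB (31.9 ± 1.78) had like levels per kb of exon (50.8 and 34.6 per kb of the longest coding transcript), and GYS1, the muscle-type glycogen synthase, was the lowest at 7.89 ± 0.283. In the pentose phosphate branch PGD and TALDO1 (50.5 ± 2.37) stood above TKT (25.5 ± 0.395) and RPIA (17.1 ± 0.981).

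**Figure D1:**
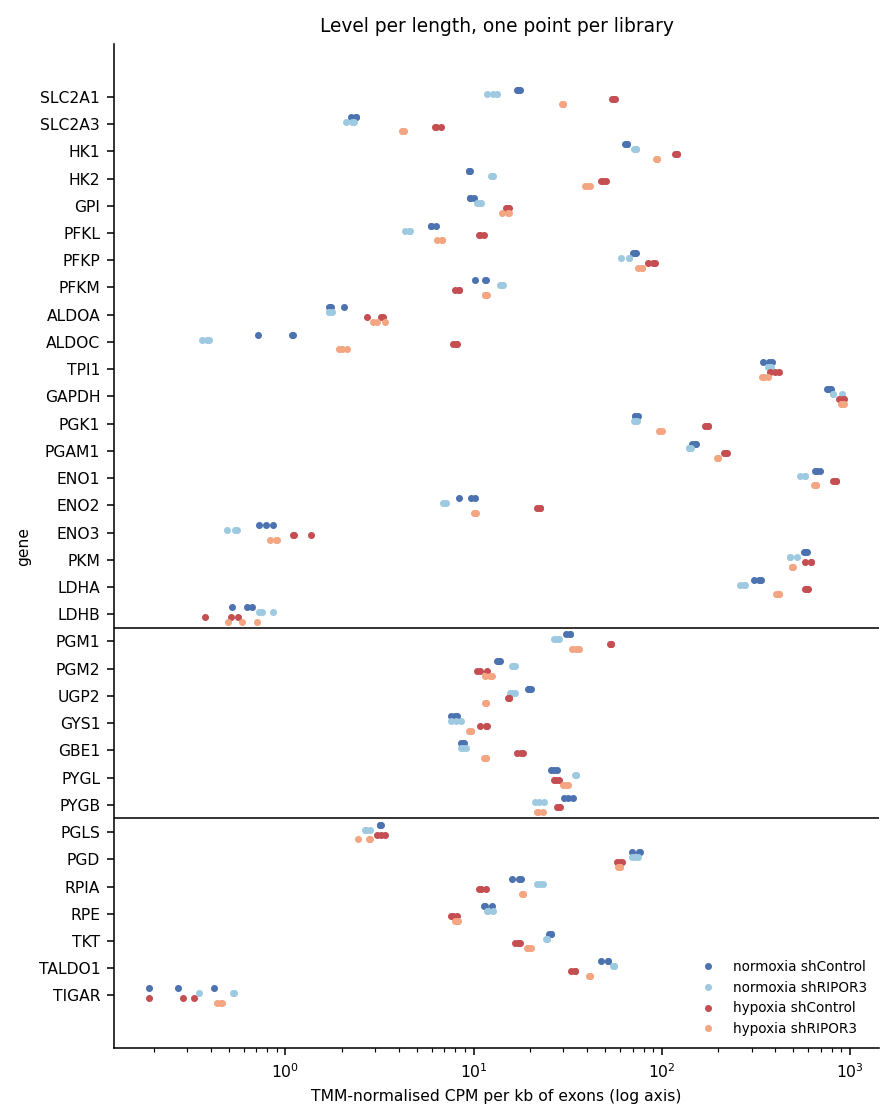
Levels of the 34 enzyme genes in TMM-normalised CPM per kb of annotated exon (log axis), with 1 point per library coloured by group and lines between the 3 branches. GAPDH, ENO1, PKM, TPI1 and LDHA lie above 250 CPM per kb in every library, and ALDOC, SLC2A1 and HK2 show some of the widest gaps between groups.

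The lowest levels in normoxia shControl were those of ALDOA (1.83 ± 0.178 CPM per kb), ALDOC (0.963 ± 0.213), ENO3 (0.789 ± 0.0717), LDHB (0.601 ± 0.0751) and TIGAR (0.292 ± 0.118). Per kb of the longest coding transcript SLC2A3 (3.65) lay just below ALDOA (4.30). For 3 of these, ALDOA, LDHB and TIGAR, GENCODE 29 places another protein-coding gene on the same strand over part of their exons. The shared stretch was 42.3% of exonic bases for ALDOA, 33.4% for LDHB and 42.6% for TIGAR, and 88.4%, 64.6% and 47.1% of their longest coding transcripts. These overlapping genes are not rows of the count table, and no other member shared more than 12.5% of its longest coding transcript with a gene on its strand. How reads in shared exons were counted is not stated, so the values of ALDOA, LDHB and TIGAR hold for the counted reads. The part of the shared exons in these low levels was not tested. LDHB rests on 697 counts over all libraries and TIGAR on 574, so both are imprecise.

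Hypoxia split the 3 branches in shControl cells. Of 20 glycolytic genes 17 rose and only PFKM fell, glycogen genes divided into 3 that rose and 3 that fell, and in the pentose phosphate branch none rose and 5 of 7 fell. Over all 34 members 20 rose, where 32.4% of all tested genes did, and 9 fell, where also 32.4% did (edgeR quasi-likelihood test with Benjamini-Hochberg adjustment over all genes, threshold 0.05). The median log2 change was 0.69 for glycolysis, 0.03 for glycogen and -0.57 for the pentose phosphate branch, against 0.02 for all genes tested and -0.22 for the 2086 genes above 100 CPM. Of these 2086 genes 61.4% fell and 24.2% rose, so a fall was common among abundant genes. The values of hypoxia and normoxia libraries did not overlap for 28 of the 34 members, where those of 67.2% of all genes tested did not.

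**Figure D2:**
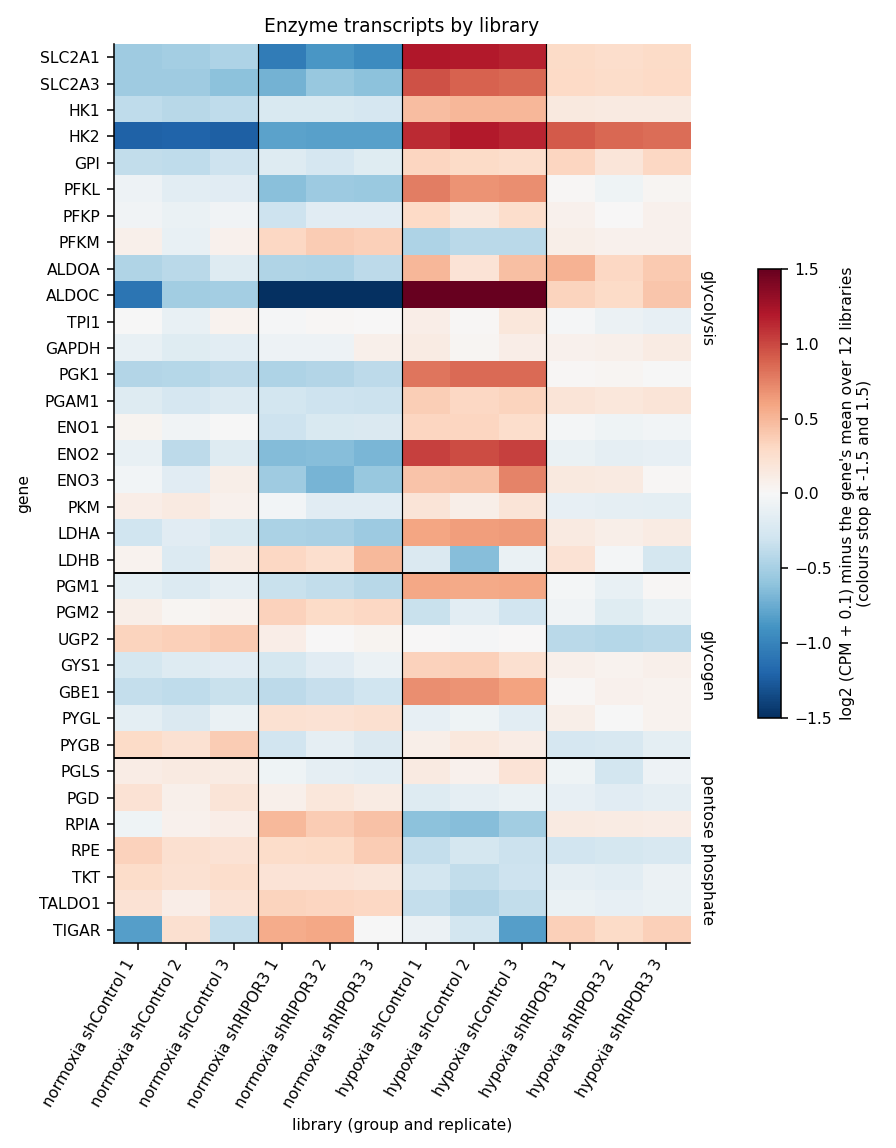
Heat map of the 34 genes (rows, by branch) in the 12 libraries (columns, by group), coloured by log2 of CPM plus 0.1 minus the gene's mean over all libraries. Most glycolytic rows are reddest in the 3 hypoxia shControl libraries and paler in hypoxia shRIPOR3, and the 5 pentose phosphate rows from PGD to TALDO1 are bluer in hypoxia shControl than in normoxia.

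Glucose entry and trapping responded strongly. SLC2A1, which encodes the glucose transporter GLUT1 (chromosome 1, 42925375 to 42959176, minus strand, GRCh38), held 80.2, 81.3 and 83.7 CPM in normoxia shControl and 266, 264 and 258 in hypoxia shControl. In shRIPOR3 it held 55.9, 63.0 and 60.1 CPM in normoxia and 142, 139.6 and 141 in hypoxia. All hypoxia libraries lay above all normoxia libraries, and the hypoxia shRIPOR3 libraries sat between the shControl groups. The rise was 3.21-fold in shControl (log2 1.68, SE 0.039, adjusted p = 9.71e-21) and 2.35-fold in shRIPOR3 (log2 1.23, SE 0.041, adjusted p = 2.36e-17). SLC2A3, for the transporter GLUT3, rose 2.78-fold and 1.89-fold. A near-identical paralog, SLC2A14, exists, so reads of SLC2A3 could be split between the 2 genes.

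HK2, the inducible hexokinase that traps glucose as its phosphate (chromosome 2, 74833981 to 74893359, plus strand), held 57.4, 57.7 and 57.0 CPM in normoxia shControl and 289, 305 and 294 in hypoxia shControl. The shRIPOR3 libraries gave 76.5, 76.0 and 75.4 CPM in normoxia and 252, 242 and 238 in hypoxia. No library of one oxygen level overlapped the other, and shRIPOR3 libraries were the higher ones in normoxia and the lower ones in hypoxia. HK2 rose 5.16-fold in shControl (log2 2.37, SE 0.039, adjusted p = 3.34e-23) and 3.22-fold in shRIPOR3 (log2 1.69, SE 0.038, adjusted p = 3.92e-20). HK1, the constitutive hexokinase, started higher and rose 1.84-fold in shControl, from 413, 401 and 412 CPM to 742, 760.4 and 758, and 1.30-fold in shRIPOR3.

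The middle of the pathway was uneven. GPI, the glucose phosphate isomerase, rose by log2 0.64 in shControl and 0.48 in shRIPOR3. Among the phosphofructokinases, which catalyse the committed step, the liver-type PFKL rose by 0.85 and 0.57, the platelet-type PFKP by 0.31 and 0.25, and the muscle-type PFKM fell by 0.44 and 0.28. PFKM held 84.9, 74.7 and 84.2 CPM in normoxia shControl and 58.4, 61.0 and 61.1 in hypoxia shControl, with no overlap. ALDOC, an aldolase best known from brain (chromosome 17, 28573115 to 28577264, minus strand), had the largest change of all members. It held 2.10, 3.16 and 3.20 CPM in normoxia shControl and 23.5, 22.6 and 24.0 in hypoxia shControl. In shRIPOR3 it held 1.06, 1.14 and 1.12 CPM in normoxia and 5.84, 5.64 and 6.19 in hypoxia. The 4 groups did not overlap, and 1 normoxia shControl library lay below its 2 partners. Its rise was 8.40-fold in shControl (log2 3.07, SE 0.097, adjusted p = 3.12e-18) and 5.29-fold in shRIPOR3 (log2 2.40, SE 0.14, adjusted p = 1.06e-12). ALDOA, the widespread aldolase, rose 1.67-fold and 1.81-fold in its counted reads.

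Further down, PGK1, the phosphoglycerate kinase that makes the first ATP of the pathway (chromosome X, 77910739 to 78129296, plus strand), held 398, 399 and 409.6 CPM in normoxia shControl and 936, 969 and 968 in hypoxia shControl. Values in shRIPOR3 were 390.4, 397 and 409 CPM in normoxia and 543, 549.6 and 536 in hypoxia. The normoxia groups overlapped and both hypoxia groups lay above them, apart from each other. PGK1 rose 2.38-fold in shControl (SE 0.036 on the log2 scale, adjusted p = 4.93e-19) and 1.36-fold in shRIPOR3 (log2 0.44, SE 0.036, adjusted p = 1.86e-10). ENO2, the neuron-type enolase (chromosome 12, 6913745 to 6923698, plus strand), rose 2.34-fold and 1.46-fold, from 43.7, 36.0 and 41.3 CPM to 96.0, 93.0 and 96.6 in shControl and from 30.1, 30.4 and 29.4 CPM to 44.0, 43.2 and 43.5 in shRIPOR3. The hypoxia shRIPOR3 libraries overlapped those of normoxia shControl, and the hypoxia shControl libraries stood far above both.

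LDHA (chromosome 11, 18394388 to 18408425, plus strand) held 1928, 2105 and 2035 CPM in normoxia shControl and 3583, 3683 and 3706 in hypoxia shControl. In shRIPOR3 it held 1713, 1693 and 1627 CPM in normoxia and 2602, 2517 and 2596 in hypoxia. The 4 groups did not overlap. LDHA rose 1.81-fold in shControl (adjusted p = 4.40e-15) and 1.53-fold in shRIPOR3 (adjusted p = 4.17e-12). Several other abundant transcripts moved less than LDHA. PGAM1 rose by log2 0.56 in shControl and 0.49 in shRIPOR3, ENO1 by 0.30 and 0.21, and GAPDH by 0.24 and 0.11. ENO3, the muscle-type enolase, rose by 0.57 and 0.72. It shares 2.59% of its exonic bases with PFN1 on the opposite strand, which held 270319 counts against 1484 for ENO3. The strand setting of the counting is not stated, and the part of PFN1 reads in the ENO3 values was not tested. PKM changed by 0.06 and -0.01, past the threshold in neither line. With library totals PKM passed the threshold as higher, at 0.17 in shControl and 0.11 in shRIPOR3. TPI1 rose by 0.12 in shControl, and this call was lost without normoxia shControl replicate 1 (0.12) or 2 (0.07) and without hypoxia shControl replicate 1 (0.12) or 3 (0.08), and with DESeq2 (0.10). In shRIPOR3 the TPI1 value was -0.08 and did not pass.

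In shRIPOR3 cells 19 members rose with hypoxia, where 25.2% of all genes did, and 10 fell, where 30.4% did. By branch, 16 of 20 glycolytic genes rose and 2 fell, 3 glycogen genes rose and 3 fell, and 5 pentose phosphate genes fell. Median log2 changes were 0.49, -0.00 and -0.31, against -0.01 for all genes tested and -0.18 for genes above 100 CPM. Of the genes above 100 CPM 59.35% fell and 22.9% rose. The groups did not overlap for 29 members, against 61.2% of all genes tested. All 19 that rose had also risen in shControl, so 55.9% of members rose in both lines, where 20.5% of all genes did. Another 8, or 23.5%, fell in both, where 24.6% of all genes did. LDHB fell in shRIPOR3 by 0.39 with an adjusted p of 0.0492 in edgeR, and had -0.34 in shControl without passing. The LDHB call was lost without each of the 6 libraries except hypoxia shRIPOR3 replicate 1, at values from -0.45 to -0.26. It was also lost with DESeq2 (-0.38, adjusted p = 0.144) and, in edgeR, with median-of-ratios scaling, upper-quartile scaling, library totals, no filter, a filter of 1 CPM and only the 2 groups (adjusted p from 0.0563 to 0.174). The GAPDH call in shRIPOR3 was lost without each of these libraries except normoxia shRIPOR3 replicate 3, at 0.08 to 0.12.

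**Figure D3:**
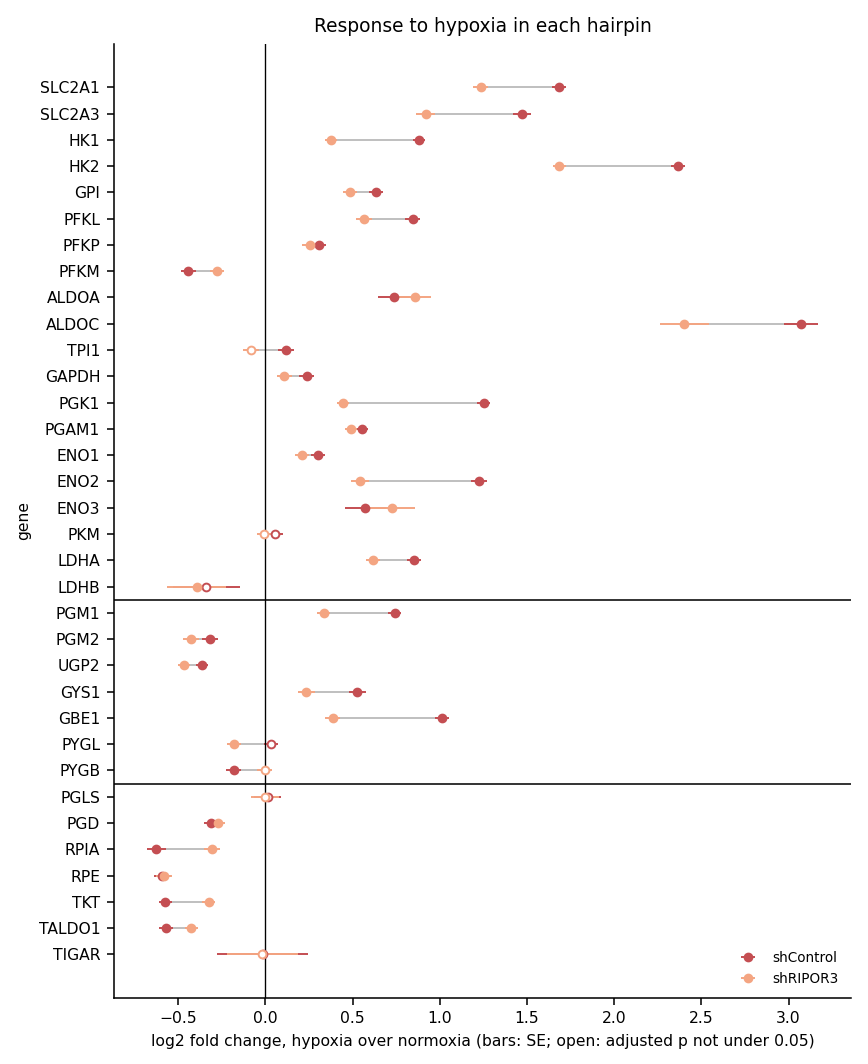
Log2 fold change of hypoxia over normoxia for each gene in shControl (dark red) and shRIPOR3 (orange), with bars for the standard error and open points where the adjusted p was not under 0.05. Points for HK2, SLC2A1, PGK1, ENO2 and GBE1 lie further right in shControl than in shRIPOR3, and pentose phosphate points lie at or left of 0.

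Among the 34 members 7 rose at least 2-fold in shControl hypoxia, namely SLC2A1, SLC2A3, HK2, ALDOC, PGK1, ENO2 and GBE1. The window from 250 bases before to 50 bases after each RefSeq start (GRCh38.p14) was searched for ACGTG, the core letters that hypoxia-inducible factors are known to bind, on both strands. RefSeq windows were at hand for 33 members, SLC2A3 being the one without. These members had 57 windows, and all 27305 genes had 35116. Counted by window, ACGTG stood in 36.8% of the members' windows and 21.4% of all windows of this length. Counted by gene, which favours genes with several windows, it stood in 17 of the 33 members, or 51.5%, and in 24.9% of all genes. By gene it stood in 12 of the 19 members with a window that rose, in 4 of 9 that fell and in 1 of 5 not called. By window it stood in 15 of 36 (41.7%) for those that rose, 5 of 16 (31.25%) for those that fell and 1 of 5 (20%) for the rest. The related letters GCGTG stood in 43.9% of the members' windows and 36.5% of all windows, or 63.6% of the members and 40.6% of all genes. A match is a description of letters and not a measured site. For 5 of the 7 strongest risers the match nearest to an annotated start and its flanks are shown because these genes rose together, with capitals marking ACGTG or, read from the other strand, CACGT. They lie at chr2:74834069-74834093 (plus strand) for HK2, chr17:28576909-28576933 (minus) for ALDOC, chrX:78104266-78104290 (plus) for PGK1, chr12:6914452-6914476 (plus) for ENO2 and chr3:81761743-81761767 (minus) for GBE1. The windows of ALDOC and PGK1 held 3 matches each, the 2 windows of HK2 held 2 and 4, and those of ENO2 and GBE1 held 1 each. The match shown for PGK1 falls just after the annotated start, and its other 2 matches and all matches of the other 4 genes fall before it. The SLC2A1 window held GCGTG and no ACGTG.
HK2: tgggcgtgcgCACGTcactgatccg
ALDOC: ccggaggagtCACGTagctctgcga
PGK1: ctccggagcgCACGTcggcagtcgg
ENO2: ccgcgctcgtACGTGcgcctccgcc
GBE1: cccgctccggACGTGcgtcccggca

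Glycogen genes parted by step. GBE1, the branching enzyme that shapes the growing polymer (chromosome 3, 81489699 to 81762161, minus strand), held 45.2, 44.5 and 45.8 CPM in normoxia shControl and 94.2, 92.2 and 88.0 in hypoxia shControl. With the RIPOR3 hairpin it held 44.1, 45.5 and 47.1 CPM in normoxia and 58.5, 60.5 and 60.2 in hypoxia. The normoxia groups overlapped, and the hypoxia groups stood apart with shRIPOR3 the lower. GBE1 rose 2.02-fold in shControl (log2 1.01, SE 0.040, adjusted p = 2.27e-16) and 1.31-fold in shRIPOR3 (log2 0.39, SE 0.041, adjusted p = 1.98e-08). PGM1, the main phosphoglucomutase, rose 1.67-fold and 1.26-fold, and GYS1 rose 1.44-fold and 1.18-fold. PGM2, counted here in the glycogen branch although it acts mainly on pentose phosphates, fell by log2 0.32 in shControl and 0.43 in shRIPOR3. UGP2, which makes the UDP-glucose that glycogen synthase uses, fell by 0.36 and 0.47.

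The glycogen phosphorylases, which release glucose phosphate from the store, moved little. PYGL, the liver type, held 129, 123 and 133 CPM in normoxia shControl and 131, 137 and 128 in hypoxia shControl, and these overlapped (log2 0.03, adjusted p = 0.459 in edgeR). In shRIPOR3 PYGL fell by 0.18, from 167, 166 and 169 CPM to 152, 143 and 148. PYGB, the brain type, fell by 0.18 in shControl and had -0.00 in shRIPOR3. With library totals PYGL was higher in shControl (0.14) and lost its call in shRIPOR3 (-0.06), and PYGB lost its call in shControl (-0.07) and was higher in shRIPOR3 (0.12). PYGB in shRIPOR3 thus turned from just under 0 to higher with the scaling, and the other 3 changes kept their sign.

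Every pentose phosphate gene that passed the threshold fell in hypoxia. RPIA, which isomerises ribose phosphate in the non-oxidative arm (chromosome 2, 88691644 to 88750935, plus strand), held 29.6, 32.3 and 33.0 CPM in normoxia shControl and 20.2, 19.8 and 21.5 in hypoxia shControl. In shRIPOR3 it held 43.3, 40.2 and 41.8 CPM in normoxia and 33.9, 33.8 and 33.4 in hypoxia. Hypoxia libraries lay below normoxia libraries of the same hairpin, yet the hypoxia shRIPOR3 libraries stood above all normoxia shControl libraries. RPIA fell by 0.62 on the log2 scale in shControl (SE 0.053, adjusted p = 2.18e-10) and by 0.31 in shRIPOR3 (SE 0.047, adjusted p = 5.71e-06).

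TKT, the transketolase that links the pathway back to glycolysis (chromosome 3, 53224707 to 53256052, minus strand), held 246, 239 and 244 CPM in normoxia shControl and 168, 158 and 164 in hypoxia shControl. The corresponding shRIPOR3 values were 234, 234 and 232 CPM in normoxia and 185, 182 and 191 in hypoxia. Each hypoxia group lay below both normoxia groups. TKT fell by 0.57 in shControl (SE 0.036, adjusted p = 8.59e-13) and by 0.33 in shRIPOR3 (SE 0.035, adjusted p = 2.89e-08). TALDO1, the transaldolase of the same arm, fell by 0.57 and 0.43, and RPE, the pentose phosphate epimerase, by 0.59 and 0.58. RPE shares 23.8% of its exonic bases with KANSL1L on the opposite strand, and the strand setting of the counting is not stated. In the oxidative arm PGD, the phosphogluconate dehydrogenase that yields NADPH, fell by 0.31 and 0.27, whereas PGLS, the lactonase before it, had 0.01 and -0.00. TIGAR, a phosphatase that lowers glycolytic flux, had -0.02 in both lines with standard errors of 0.26 and 0.20. A change of moderate size was thus not detectable with its few counts.

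As shares of all counts the branches are far apart in size. Glycolysis took 1.53% ± 0.00300 (SD, n = 3) of counts in normoxia shControl, 2.16% ± 0.0312 in hypoxia shControl, 1.38% ± 0.0166 in normoxia shRIPOR3 and 1.74% ± 0.0214 in hypoxia shRIPOR3. The libraries of these 4 groups did not overlap. Glycogen genes took 0.0640% ± 0.00202, 0.0795% ± 0.00173, 0.0601% ± 0.000384 and 0.0640% ± 0.00167 in the same order, with hypoxia shControl the highest, normoxia shRIPOR3 the lowest and the other groups overlapping. Pentose phosphate genes took 0.0672% ± 0.00202, 0.0521% ± 0.000496, 0.0677% ± 0.000461 and 0.0582% ± 0.00103, with the normoxia groups overlapping and hypoxia shControl the lowest. These shares weigh abundant and long transcripts most and were not tested.

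The knockdown in normoxia gave smaller changes in mixed directions. Of the members 10 were higher in shRIPOR3, where 25.1% of all genes were, and 13 were lower, where 20.6% were. In glycolysis 5 were higher and 9 lower, in the glycogen branch 2 higher and 3 lower, and in the pentose phosphate branch 3 higher and 1 lower. The groups did not overlap for 25 members, against 51.8% of all genes tested. ALDOC fell 2.49-fold (adjusted p = 2.39e-06), and ENO3 by log2 0.60, PYGB by 0.51, SLC2A1 by 0.45, ENO2 by 0.45 and PFKL by 0.44. UGP2 (0.31), LDHA (0.27), ENO1 (0.25), PKM (0.23), PGM1 (0.21) and PFKP (0.15) also fell.

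The members higher in normoxia shRIPOR3 included both hexokinases. HK2 rose by log2 0.41 (SE 0.042, adjusted p = 2.25e-08) and HK1 by 0.16 (SE 0.034, adjusted p = 0.000617). RPIA rose by 0.40, PYGL by 0.38, PFKM by 0.33, PGM2 by 0.26, and GPI and TALDO1 by 0.14 each. TIGAR held 0.752, 1.68 and 1.08 CPM in shControl and 2.12, 2.15 and 1.40 in shRIPOR3. These TIGAR values overlapped, and its rise of 0.74 (SE 0.26, adjusted p = 0.0209) was lost without shControl replicate 1 (0.50) or 3 (0.73) and without shRIPOR3 replicate 1 (0.67) or 2 (0.61). GAPDH rose by 0.13 and lost its call without shControl replicate 2 (0.11) or shRIPOR3 replicate 3 (0.08). PGLS fell by 0.25 and lost its call without shControl replicate 3 (-0.25) or shRIPOR3 replicate 2 (-0.25) or 3 (-0.23). PFKP lost its call without shRIPOR3 replicate 1 (-0.10), and PGAM1, at -0.09 and not called, passed without shControl replicate 2 (-0.10). PGAM1 also passed with DESeq2 (adjusted p = 0.00784) and, in edgeR, with median-of-ratios scaling, upper-quartile scaling, library totals, a filter of 1 CPM and only the 2 groups (adjusted p from 0.0139 to 0.0362). With only the 2 groups TKT passed (-0.09) and GAPDH did not (0.10), and PGLS did not pass with DESeq2 (-0.26) or with no filter (-0.24). PGK1 (-0.01), GBE1 (0.01), SLC2A3 (-0.06) and GYS1 (0.05), each of which rose in hypoxia, did not pass in normoxia.

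In hypoxia most glycolytic genes were lower with the RIPOR3 hairpin. Of the 34 members 21 were lower in shRIPOR3, where 31.2% of all genes were, and 7 were higher, where 30.7% were. Glycolysis had 15 lower and 1 higher, glycogen 5 lower and 2 higher, and the pentose phosphate branch 1 lower and 4 higher. Median log2 changes were -0.32, -0.33 and 0.19, against -0.00 for all genes tested and 0.06 for genes above 100 CPM. The groups did not overlap for 27 members, against 66% of all genes tested.

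ALDOC was 3.96-fold lower in hypoxia shRIPOR3 (log2 -1.98, SE 0.072, adjusted p = 6.03e-17) and ENO2 was 2.18-fold lower (log2 -1.13, SE 0.043, adjusted p = 2.02e-16). SLC2A1 was 1.87-fold lower and PGK1 1.76-fold lower. PFKL fell by log2 0.72, PGM1 and GBE1 by 0.62, SLC2A3 by 0.61, LDHA by 0.51 and ENO3 by 0.45. Smaller decreases were those of UGP2 (0.41), HK1 (0.35), ENO1 (0.34), PYGB (0.33), PKM (0.30), HK2 (0.28), PGLS (0.27), GYS1 (0.25), PFKP (0.20), TPI1 (0.17) and PGAM1 (0.15). The hexokinases HK1 and HK2 were the 2 members higher in shRIPOR3 in normoxia and lower in hypoxia. GAPDH (-0.00), GPI (-0.01) and ALDOA (0.02) did not pass, with standard errors of 0.043, 0.038 and 0.075.

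Genes higher in hypoxia shRIPOR3 were TIGAR (log2 0.74, SE 0.20), RPIA (0.72, SE 0.048), PFKM (0.50), TALDO1 (0.28), TKT (0.19), PYGL (0.16) and PGM2 (0.15). TIGAR held 1.32, 1.15 and 0.754 CPM in hypoxia shControl and 1.84, 1.74 and 1.83 in hypoxia shRIPOR3, without overlap. The PGM2 call was lost without hypoxia shControl replicate 1 (0.11). LDHB, at 0.30 and not called, passed without hypoxia shRIPOR3 replicate 3 (0.43). Across the 2 oxygen levels 13 members (38.2%) were lower in shRIPOR3 in both, where 16.6% of all genes were. Another 6 (17.6%) were higher in both, where 18.9% of all genes were, namely PFKM, PGM2, PYGL, RPIA, TALDO1 and TIGAR.

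**Figure D4:**
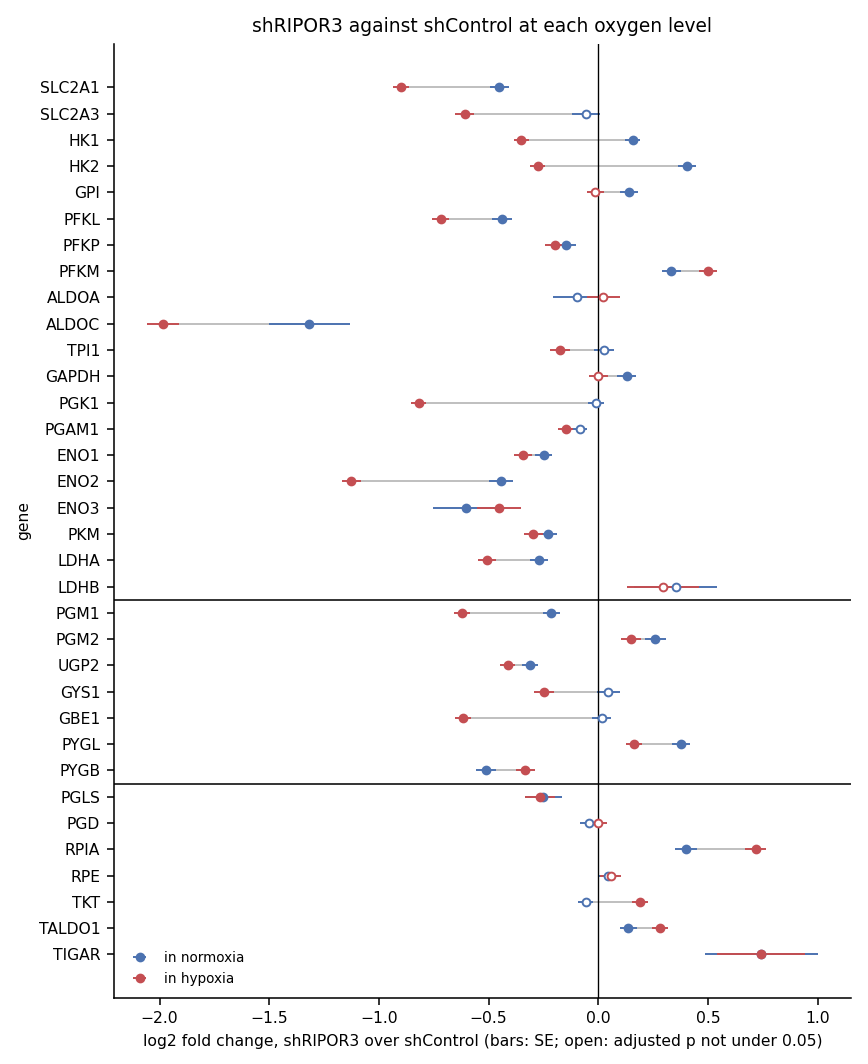
Log2 fold change of shRIPOR3 over shControl for each gene in normoxia (blue) and hypoxia (red), with bars for the standard error and open points where the adjusted p was not under 0.05. PGK1, GBE1 and SLC2A3 lie near 0 in normoxia and left of -0.5 in hypoxia, and HK1 and HK2 lie on opposite sides of 0.

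The difference between the 2 hypoxia responses was tested directly as the interaction of hairpin and oxygen. It was negative for 14 members, meaning a lower response in shRIPOR3, where 12.3% of all genes were, and positive for 4, where 10.9% were. Glycolysis had 10 negative and 1 positive, glycogen 4 negative and 1 positive, and the pentose phosphate branch 2 positive. A smaller rise in shRIPOR3 was not particular to the members. Over all genes tested 1245 rose at least 2-fold with hypoxia in shControl and 501 in shRIPOR3, and of the members 7 and 3 did. The share of negative interactions among all genes that rose was not counted. PGK1 had the largest difference, -0.81 (SE 0.050, adjusted p = 6.85e-11). HK2 and ENO2 followed at -0.68 each, then ALDOC (-0.67), GBE1 (-0.63), SLC2A3 (-0.55), HK1 (-0.51), SLC2A1 (-0.45) and PGM1 (-0.41). GYS1 (-0.29), PFKL (-0.28), LDHA (-0.24), PYGL (-0.21) and TPI1 (-0.20) were smaller.

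The positive interactions were those of RPIA (0.32, SE 0.071, adjusted p = 0.00196), TKT (0.25, SE 0.050, adjusted p = 0.00083), PYGB (0.18) and PFKM (0.16). RPIA, TKT and PFKM fell less with hypoxia in shRIPOR3 than in shControl. PFKM (adjusted p = 0.0498) lost its call without each library except normoxia shControl replicate 2 and hypoxia shControl replicates 2 and 3, at 0.14 to 0.18. PYGB lost it without replicates 1 or 3 of either normoxia group, hypoxia shControl replicate 1 or hypoxia shRIPOR3 replicate 3, at 0.13 to 0.19. TPI1 lost it without normoxia shControl replicate 2, normoxia shRIPOR3 replicates 2 or 3, hypoxia shControl replicate 3 or hypoxia shRIPOR3 replicates 2 or 3, at -0.20 to -0.12. ALDOC lost it without normoxia shControl replicate 1 (-0.47) and normoxia shRIPOR3 replicate 2 (-0.64) or 3 (-0.66), and PYGL without hypoxia shControl replicate 2 (-0.15). TALDO1, at 0.14 and not called, passed without normoxia shControl replicate 2 (0.18) and hypoxia shControl replicates 2 (0.16) or 3 (0.19), and GPI, at -0.15, without hypoxia shRIPOR3 replicate 1 (-0.18). TALDO1 also passed with DESeq2 (0.17, adjusted p = 0.0112) and, in edgeR, with median-of-ratios scaling, upper-quartile scaling and library totals (adjusted p from 0.0239 to 0.0416), and GPI with a filter of 1 CPM or the replicate block (-0.16 in both). With no filter PFKM (0.18), PYGB (0.19) and TPI1 (-0.19) lost their calls, and with the replicate block PFKM did (0.16). ALDOA (0.12), PGAM1 (-0.06), ENO1 (-0.09), PFKP (-0.05) and PKM (-0.07) did not pass, and for ALDOA the standard error was 0.13.

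Isoenzymes of the same step were compared as log2 ratios of counts within each library, which need no scaling between libraries. The related pair PGM2 and PGM1 was included, though PGM2 acts mainly on pentose phosphates and need not serve the step of PGM1. Hypoxia and the hairpin were each tested on 10 ratios by a two-sided exact permutation test over the 12 libraries, stratified by the other factor, and adjusted over the 20 tests. The smallest p that 400 arrangements can give is 0.005, or 0.00588 after adjustment, and each test reached it unless another value is stated. Of the 20 tests 19 passed 0.05.

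Hypoxia tilted hexokinases towards HK2. The HK2/HK1 ratio was -2.83 ± 0.030 (log2, SD, n = 3) in normoxia shControl and -1.35 ± 0.027 in hypoxia shControl, and -2.58 ± 0.0067 and -1.27 ± 0.041 in shRIPOR3. The ratio was thus 1.40 higher in hypoxia on average, and it was also 0.16 higher in shRIPOR3. Per length of exon HK2 made up 12.7% ± 0.23 of the 2 hexokinases in normoxia shControl and 28.96% ± 0.38 in hypoxia shControl, and HK1 remained the larger part in all groups. The transporters moved the other way, with SLC2A3/SLC2A1 lower by 0.27 in hypoxia and higher by 0.34 in shRIPOR3.

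The phosphofructokinases showed opposite effects of oxygen and hairpin. The PFKM/PFKL ratio was 0.58 ± 0.089 in normoxia shControl, -0.70 ± 0.086 in hypoxia shControl, 1.36 ± 0.017 in normoxia shRIPOR3 and 0.52 ± 0.048 in hypoxia shRIPOR3. It was lower by 1.06 in hypoxia and higher by 1.00 in shRIPOR3, and the values of hypoxia shRIPOR3 overlapped those of normoxia shControl. PFKP/PFKL was lower by 0.43 in hypoxia and higher by 0.41 in shRIPOR3. PFKP remained the main form per length, between 77.8% and 82.2% of the family on average in each group.

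ALDOC/ALDOA, with ALDOA limited to its counted reads, was 1.93 higher in hypoxia and 1.61 lower in shRIPOR3. ENO2/ENO1 was 0.63 higher in hypoxia and 0.48 lower in shRIPOR3 (adjusted p = 0.0111, exact permutation test). These averages join unequal parts. The hypoxia difference was 0.94 in shControl and 0.33 in shRIPOR3. The hairpin difference was -0.78 in hypoxia and -0.17 in normoxia, where the libraries of the hairpins overlapped. ENO1 nonetheless held between 97.3% and 98.7% of the enolase level per length on average in each group. ENO3/ENO1, with ENO3 limited to its counted reads, was 0.39 higher in hypoxia and 0.21 lower in shRIPOR3 (adjusted p = 0.0421, exact permutation test). The last result was lost without each library except normoxia shRIPOR3 replicate 1, hypoxia shControl replicates 1 and 2 and hypoxia shRIPOR3 replicate 2, and ranged from -0.25 to -0.15 over all 12. LDHB/LDHA, which rests on few LDHB counts and is limited to the counted reads of LDHB, was 1.10 lower in hypoxia and 0.73 higher in shRIPOR3.

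PGM2/PGM1 was 0.91 lower in hypoxia and 0.62 higher in shRIPOR3. Per length PGM1 made up 70.2% ± 0.36 of the summed PGM1 and PGM2 level in normoxia shControl and 83.0% ± 0.94 in hypoxia shControl. In shRIPOR3 PGM1 made up 62.9% ± 0.60 in normoxia and 74.2% ± 0.62 in hypoxia. The phosphorylase ratio PYGB/PYGL was 0.69 lower in shRIPOR3, -0.89 in normoxia and -0.50 in hypoxia. Hypoxia changed it by -0.21 in shControl and 0.18 in shRIPOR3, which averaged -0.02 and did not pass (adjusted p = 0.83, exact permutation test). PYGB was the larger part per length in normoxia shControl, at 54.4% ± 0.49, and PYGL in normoxia shRIPOR3, at 60.9% ± 1.4. Over the longest coding transcripts PYGL was the larger part in normoxia shControl too, at 54.96% against 45.04% for PYGB, so which form was larger there depends on the length used.

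**Figure D5:**
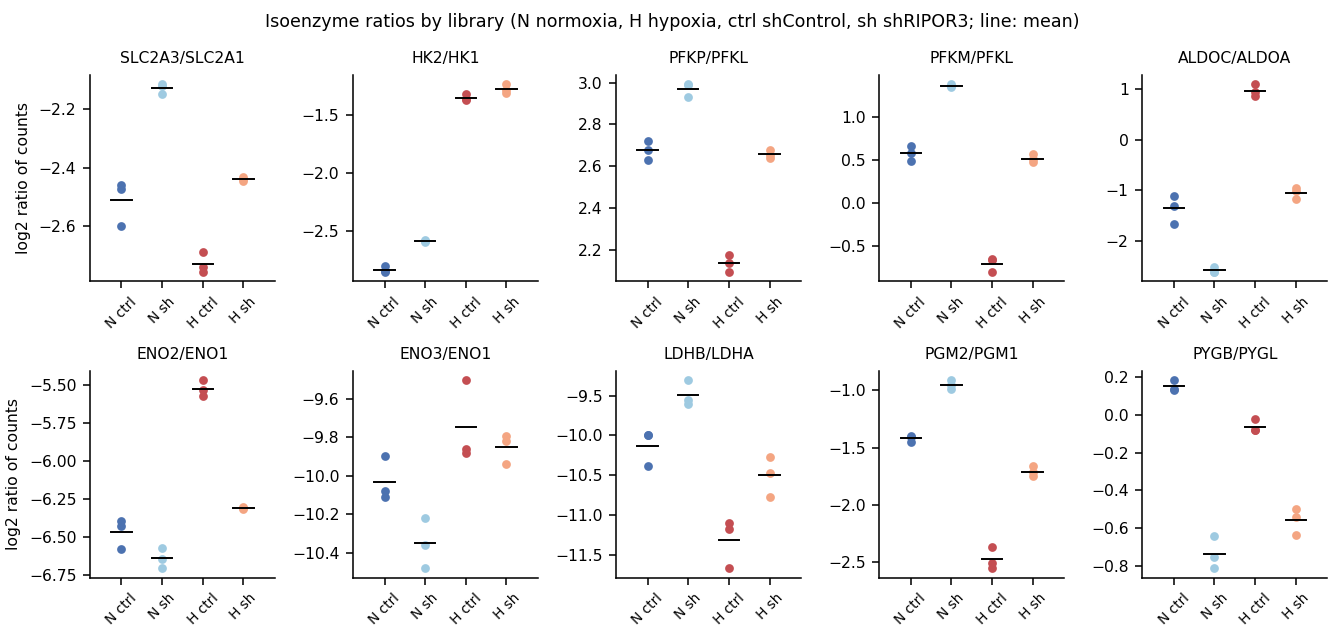
Log2 ratio of counts of 2 isoenzymes, or of the related PGM2 and PGM1, in each library. The 10 panels have their own vertical axes, with the 4 groups along the horizontal axis and a line at each mean. HK2/HK1 splits by oxygen, PYGB/PYGL mainly by hairpin, and PFKM/PFKL is lowest in hypoxia shControl and highest in normoxia shRIPOR3.

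Other genes of these pathways were taken from a list of 79 symbols, of which 64 were in the table and 49 were tested. In shControl hypoxia 21 rose (42.9%, against 32.4% of all genes) and 14 fell (28.6%, against 32.4%). In shRIPOR3 hypoxia 15 rose (30.6%, against 25.2%) and 14 fell (28.6%, against 30.4%), shares near those of all genes. The knockdown in normoxia gave 9 higher (18.4%, against 25.1%) and 11 lower (22.4%, against 20.6%). In hypoxia it gave 12 higher (24.5%, against 30.7%) and 20 lower (40.8%, against 31.2%). The interaction was positive for 3 (6.12%, against 10.9%) and negative for 13 (26.5%, against 12.3%). PFKFB4, which makes the fructose bisphosphate that activates phosphofructokinase, rose from 9.29 ± 0.168 CPM to 47.9 ± 1.26 in shControl and from 4.53 ± 0.0880 to 18.0 ± 0.602 in shRIPOR3. Its changes were 2.37 and 1.99 on the log2 scale, and it was 1.41 lower in shRIPOR3 than in shControl in hypoxia. PFKFB3, of the same family, rose by 1.12 in shControl, SLC16A3, the lactate exporter MCT4, by 1.16, and PPP1R3E, a glycogen-targeting subunit of protein phosphatase, by 1.95.

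FBP1, a gluconeogenic phosphatase that opposes phosphofructokinase, fell by 0.90 in shControl hypoxia. H6PD, an enzyme of the endoplasmic reticulum that makes NADPH there, rose by 0.94 in shControl hypoxia. In hypoxia H6PD was lower by 0.80 in shRIPOR3, PGM2L1, a phosphoglucomutase relative that makes glucose bisphosphate, was lower by 1.18, and PGAM5, a mitochondrial protein phosphatase despite its name, was higher by 0.81.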

How the data were processed

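Messenger RNA was sequenced in 12 libraries, 3 in each of 4 groups of hairpin and oxygen. The authors deposited raw counts per gene symbol, 1 column per library, made from stranded libraries per the labels. Per the submitters' processing notes, the tools were fastp 0.23.4, STAR 2.5.3a and featureCounts and the build was GRCh38, with their roles not described. The annotation used for counting is not stated. Members and lists were chosen with earlier results of these data known.

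The model in edgeR 4.0.16 (R 4.3.3) had 1 coefficient per group, all 12 libraries, TMM factors and the 15648 genes that filterByExpr kept. The quasi-likelihood test was used with Benjamini-Hochberg adjustment over these genes and a threshold of 0.05. The biological coefficient of variation was 3.75%. The chi-square between replicates was 2.65 to 6.18 per degree of freedom, above counting error. The named genes were all 34 members, RIPOR3, HIF1A, EPAS1 and, from the list of other pathway genes, the 6 with the smallest p for hypoxia in shControl and the 4 with the smallest p for the knockdown in hypoxia, with paralogs or pseudogenes whose reads bear on a member. Some genes of the lists are not reported here by name. Levels per length used the merged exons of GENCODE 29. Isoenzyme ratios were log2 ratios of counts with 0.5 added, tested over 400 arrangements of the libraries. The pipeline was tested on simulated data.

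Alternatives were DESeq2 1.42.0, other scalings, no filter, a filter of 1 CPM, a replicate block, a threshold of 0.01, only the groups compared, other added counts, another gene length and leaving out each library. limma 3.58.1 was loaded with edgeR. Python 3.11.15 with NumPy 2.4.6, pandas 2.3.3 and matplotlib 3.10.9 did the rest.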

Additional observations from a re-analysis of the deposited data

Results flagged for a closer look

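The response to hypoxia differed between the hairpins in 18 members by the interaction test of edgeR (quasi-likelihood, Benjamini-Hochberg over all genes), and each is given as the response in shRIPOR3 minus that in shControl on the log2 scale. In glucose uptake and phosphorylation the differences were -0.45 for SLC2A1, -0.55 for SLC2A3, -0.51 for HK1 and -0.68 for HK2. Among phosphofructokinases they were -0.28 for PFKL and 0.16 for PFKM, whose adjusted p was 0.0498. Further along glycolysis they were -0.67 for ALDOC, -0.20 for TPI1, -0.81 for PGK1, -0.68 for ENO2 and -0.24 for LDHA. Glycogen genes gave -0.41 for PGM1, -0.29 for GYS1, -0.63 for GBE1, -0.21 for PYGL and 0.18 for PYGB. The pentose phosphate genes RPIA and TKT gave 0.32 and 0.25.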

How the results depend on the processing

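Counts of members called in each direction stayed within 1.5 times of the reported ones under the alternatives tried, except for the 4 members with a positive interaction. These were 2 with no filter and 2 at a threshold of 0.01, and between 2 and 5 when 1 library was left out. The ENO3/ENO1 ratio, lower by 0.21 in shRIPOR3, missed the threshold with 5 added to each count (-0.19, adjusted p = 0.0684, exact permutation test) and with the replicate block (-0.21, adjusted p = 0.132, exact permutation test), and ranged from -0.25 to -0.15 when 1 library was left out. The other 19 isoenzyme tests kept their side of the threshold, and their direction except for the effect of hypoxia on PYGB/PYGL (-0.02), which did not pass and lay just above 0 without 1 of 2 shRIPOR3 libraries. The hypoxia changes of PKM and PYGB in shRIPOR3 lay just under 0 and were not called as reported. With library totals in place of TMM they were called higher (0.11 and 0.12).

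Of all recomputed fold changes of single members, 2690 kept their sign and side of the threshold, 78 lost a call and 21 gained one. The 2 of PKM and PYGB just named changed sign and gained a call. Another 99 values, of 20 changes that were past the threshold neither as reported nor in that alternative, changed sign around 0. These included PGLS and TIGAR in several comparisons and, with DESeq2, median-of-ratios and upper-quartile scaling, PKM and PYGB in shRIPOR3 hypoxia. All 72 shares of isoenzymes per length moved by more than their spread when the longest coding transcript replaced the merged exons, and the larger phosphorylase in both shControl groups then changed from PYGB to PYGL. Libraries with the same replicate number did not deviate together (median correlation 0.00187 over 18 pairs, none above 0.1), so the numbers were not read as pairs. The replicate block gave 3 positive and 15 negative interactions, and for the other comparisons the same counts as reported. TIGAR (574 counts in all) and LDHB (697) had the fewest counts of the members and are imprecise. Both share exons with a gene on the same strand, and the part of this in their low counts was not tested. The cause of these shifts was not tested.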
